A study of Mus musculus with 6 samples.

Results

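The peroxisome proliferator-activated receptors (PPARs) and a set of genes that they are known to control were followed in mouse primary cortical cell cultures treated with a fatty acid of royal jelly. The genes were chosen by symbol, with earlier results of these data known. They are Ppara, Ppard and Pparg (the receptors) and Plin2, Pdk4, Angptl4, Ucp2, Acot1 and Acot2 (targets). Each of the 9 symbols matched 1 row of the count table, which lists 43346 genes. Cells were taken from the brain of fetuses at gestational day 15.5, labelled as strain Cyp19-EGFP and genotype SRY+ (male), and were given DMSO as the vehicle (written DSMO in the labels) or 1 mM 10HDA, trans-10-hydroxy-2-decenoic acid. There were 6 libraries of total RNA, 3 of each treatment. Cultures 1, 3 and 4 each gave 1 vehicle and 1 10HDA library. The methods of the study name C57BL/6 embryos for this experiment and call the cells neurons, where the labels name Cyp19-EGFP and a cortical cell culture.

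The libraries held from 9144736 to 13367194 counts, so that 3 counts corresponded to 0.216 to 0.329 CPM (counts scaled by TMM to a common library total). The exact intervals of count ratios and such limits cover counting error only, whereas the 95% intervals of log2 fold changes include the spread between libraries. Neuronal markers were abundant, with a sum over 10 genes of 6834 to 8662 CPM, but the 12 astrocyte markers (952 to 1564 CPM) and 10 markers of the oligodendrocyte lineage (272 to 442 CPM) were also counted, so the cultures held more than neurons. A sum of 4 Y-linked genes (Uty, Kdm5d, Eif2s3y and Ddx3y) came to 8.88 and 9.09 CPM in the libraries of culture 1 and to 95.8 to 133 CPM in the other 4, which goes against the male label of culture 1. Values without culture 1 are therefore given for each of the 9 genes.

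PPARs are nuclear receptors that bind fatty acids and their derivatives. Each pairs with a retinoid X receptor (RXR) and binds a direct repeat of the half-site AGGTCA spaced by 1 base, called DR1. Their targets include genes for the storage, release and oxidation of lipid, and several of them serve as readouts of fatty acid sensing in liver, muscle and fat. The comparison asked whether the receptors and these readouts differed between cultures that had received a fatty acid and those that had not.

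Of the 5 genes with enough counts to be tested, 0 passed the threshold (adjusted p under 0.1) in the test without a culture term, where 0.509% of the 15311 genes in the same table passed, and 1, Pdk4, passed when culture was a block, where 7.50% did. Ppard was the sole receptor above 1 CPM. The targets with the highest levels, Acot1 and Acot2, had higher means with 10HDA without passing, Pdk4 had a mean of 2.07 CPM with vehicle and 1.03 CPM with 10HDA, and Angptl4 and Ucp2 were higher in every 10HDA library than in any vehicle library but rested on few counts, and 12.0% of the genes at such low levels did not overlap in one direction or the other. Ppara, Pparg, Angptl4 and Ucp2 were under 1 CPM in 6 of 6 libraries, and were left out of both filtered tests.

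**Figure D1:**
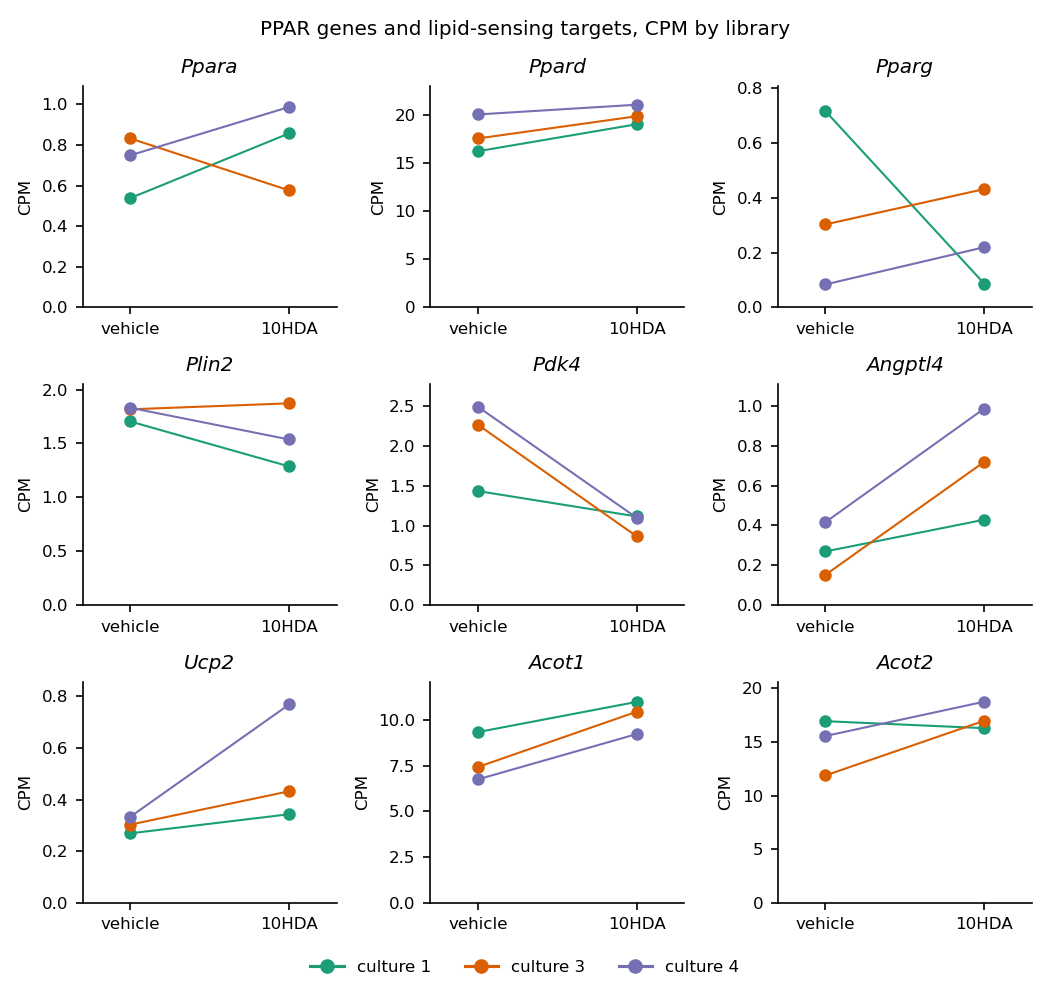
CPM (TMM-scaled, each panel with its own axis from 0) of the 9 genes in the vehicle and 10HDA libraries, with the libraries of a culture joined by a line. Pdk4 lies lower with 10HDA in each culture, at 0.864 to 1.11 CPM against 1.43 to 2.50 CPM, and Angptl4, Ucp2, Acot1 and Ppard lie higher with 10HDA in each culture.

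Ppard (ENSMUSG00000002250.11, chr17:28232700-28301474 on the plus strand of GRCm38) encodes PPARδ, the PPAR that is expressed broadly, the brain included. Ppard was counted at 16.2, 17.6 and 20.1 CPM in the vehicle libraries of cultures 1, 3 and 4, and at 19.0, 19.9 and 21.1 CPM in the 10HDA libraries of the same cultures. The groups overlapped, and the 10HDA library was the higher one within each culture, by 1.17, 1.13 and 1.05-fold. The means were 17.9 ± 1.94 and 20.0 ± 1.02 CPM (SD, n = 3), and the log2 fold change was 0.16 (SE 0.13, 95% interval -0.13 to 0.45, adjusted p = 0.688 by the quasi-likelihood test of edgeR, corrected by Benjamini-Hochberg over 10520 genes). Without culture 1 it was 0.14 (adjusted p = 0.896).

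Ppara (ENSMUSG00000022383.9, chr15:85734983-85802819, plus strand) encodes PPARα, which drives fatty acid oxidation in liver, and Pparg (ENSMUSG00000000440.8, chr6:115360951-115490399, plus strand) encodes PPARγ, which drives fat cell differentiation. Ppara had 6, 11 and 9 counts with vehicle in cultures 1, 3 and 4, and 10, 8 and 9 with 10HDA. These are 0.538, 0.832 and 0.749 CPM against 0.858, 0.576 and 0.988 CPM, and the groups overlapped. The ratio of the summed, scaled counts was 1.09, with an exact 95% counting interval of 0.612 to 1.94, and its log2 was 0.12 with all libraries and -0.10 without culture 1. Pparg had 8, 4 and 1 counts with vehicle and 1, 6 and 2 with 10HDA, or 0.717, 0.303 and 0.083 CPM against 0.086, 0.432 and 0.219 CPM. The groups overlapped here too, and culture 1 went in the opposite direction to the others. Its ratio was 0.727 (0.274 to 1.84), so that neither a rise nor a fall of Pparg was detectable at this depth. The log2 ratio of Pparg was -0.46 with all libraries, 0.81 without culture 1 and -1.43 without culture 3, so its direction rested on single cultures.

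Levels of different genes were compared as CPM per kilobase of exon, with the lengths in the count table. In this measure the order of the means was Acot2 (7.32), Acot1 (5.79), Ppard (4.10), Plin2 (0.477), Pdk4 (0.440), Ppara (0.197), Pparg (0.155), Angptl4 (0.151) and Ucp2 (0.058). Among neighbours in that order, only Ppard and Plin2 did not overlap over the 6 libraries (3.50 to 4.55 for Ppard against 0.366 to 0.533 for Plin2). The 9 genes thus fell into 3 that were above 3 CPM per kilobase in every library and 6 that were below 1 in every library. The lengths in the table equal those of GENCODE release M21 for 5 of the genes and are shorter for Ppard, Pparg, Angptl4 and Acot1, the last with 1559 bases against 3919.

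**Figure D2:**
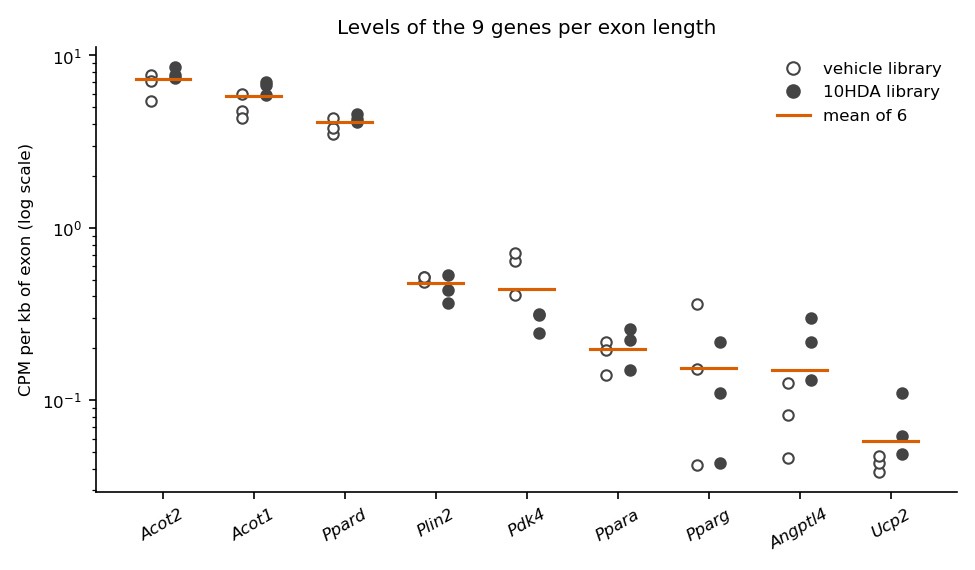
CPM per kilobase of exon on a log axis, with 1 point per library (open for vehicle, filled for 10HDA) and a line at the mean of the 6 libraries. Acot2, Acot1 and Ppard lie between 3.50 and 8.55 and the other 6 genes below 0.72.

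Plin2 and Pdk4 are known to respond to fatty acids in other tissues, and the bases before their RefSeq transcript starts are given here to show how near they come to a DR1. The 200 bases shown run from 250 to 51 bases before the start (RefSeq, GRCm38.p6, both on the minus strand, written on the gene's strand), and capitals mark the 13 bases nearest to AGGTCANAGGTCA on either strand. They lie at chr4:86670110-86670309 for Plin2 and at chr6:5496329-5496528 for Pdk4.
Plin2: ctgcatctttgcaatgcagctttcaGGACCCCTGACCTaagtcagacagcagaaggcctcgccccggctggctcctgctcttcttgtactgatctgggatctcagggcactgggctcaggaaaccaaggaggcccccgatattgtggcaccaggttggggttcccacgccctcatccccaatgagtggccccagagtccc
Pdk4: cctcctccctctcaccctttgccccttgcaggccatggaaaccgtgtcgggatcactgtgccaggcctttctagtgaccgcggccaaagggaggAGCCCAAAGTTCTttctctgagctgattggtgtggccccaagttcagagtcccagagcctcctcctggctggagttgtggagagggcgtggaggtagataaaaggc

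Read in the direction of the motif, with bases that match AGGTCANAGGTCA in capitals and the others and the spacer in lower case, the nearest matches of 3 targets were as follows, to show how far each is from the repeat.
Plin2: AGGTCAggGGTCc
Acot2: AGcaCAcAGcTCA
Pdk4: AGccCAaAGtTCt
Plin2 had 2 mismatches, Acot2 had 3 and Pdk4 had 4. Of 32851 RefSeq windows from 250 bases before to 50 after a start, 3.86% held a match with at most 2 mismatches on either strand and 24.6% one with at most 3. Windows were found for 8 of the 9 genes, and Acot1, Ucp2, Ppara and each of 3 Pparg windows had 4 mismatches and Ppard 5. Only these letters were searched, and a match is a description of the sequence, not a binding site.

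Plin2 (ENSMUSG00000028494.8, chr4:86648386-86670060, minus strand) encodes perilipin 2, which coats lipid droplets. Plin2 was at 1.70, 1.82 and 1.83 CPM with vehicle in cultures 1, 3 and 4, and at 1.29, 1.87 and 1.54 CPM with 10HDA. The highest and the lowest library were both 10HDA libraries, so the groups overlapped. The means were 1.78 ± 0.070 and 1.56 ± 0.294 CPM (SD, n = 3). In the test over the 15311 genes that reached 1 CPM in 3 or more libraries, the log2 fold change was -0.16 (SE 0.27, 95% interval -0.76 to 0.43, adjusted p = 0.852, edgeR). Without culture 1 it was -0.07 (adjusted p = 0.979), and without culture 3 -0.34 (adjusted p = 0.876). Of the 50-base windows of its transcript, 4.89% also occur in Gm12551, and reads from these cannot be told apart.

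Pdk4 (ENSMUSG00000019577.4, chr6:5483351-5496309, minus strand) encodes pyruvate dehydrogenase kinase 4, which turns off pyruvate dehydrogenase and so spares glucose when fatty acids are burned. It had 16, 30 and 30 counts with vehicle in cultures 1, 3 and 4, and 13, 12 and 10 counts with 10HDA. The CPM were 1.43, 2.27 and 2.50 with vehicle and 1.11, 0.864 and 1.10 with 10HDA. Every 10HDA library was below every vehicle library, and the ratio within a culture was 0.777, 0.381 and 0.440. Of the 50-base windows of the Pdk4 transcript, 1.43% also occur in another gene and 1.34% in Atg4c.
The means of Pdk4 were 2.07 ± 0.559 and 1.03 ± 0.140 CPM (SD, n = 3), with a log2 fold change of -1.01 (SE 0.32, 95% interval -1.70 to -0.32). The summed, scaled counts had a ratio of 0.483 (exact 95% counting interval 0.314 to 0.730). The adjusted p from edgeR was 0.298 without a culture term and 0.0801 with culture as a block, where the log2 fold change was -0.99, so that Pdk4 passed the threshold only in the blocked fit. With the block, the adjusted p was 0.0434 without culture 1 (log2 fold change -1.28), 0.303 without culture 3 (-0.79) and 0.329 without culture 4 (-0.92). The blocked call was thus lost without culture 3 or culture 4. Without the block, the edgeR adjusted p was 0.547, 0.759 and 0.441 without cultures 1, 3 and 4 in turn (log2 fold changes -1.29, -0.83 and -0.93). A list of 9 other genes was drawn from the pyruvate dehydrogenase complex and its kinases and phosphatases, without covering all of them. Each of the 9 passed the filter of 10 CPM, with 4 above and 5 below 0 in log2 fold change. In the test, 0 of 9 passed with or without the block.

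Angptl4 (ENSMUSG00000002289.11, chr17:33773750-33781830, minus strand) encodes a secreted inhibitor of lipoprotein lipase. It had 3, 2 and 5 counts with vehicle in cultures 1, 3 and 4, and 5, 10 and 9 counts with 10HDA, which are 0.269, 0.151 and 0.416 CPM against 0.429, 0.720 and 0.988 CPM. The groups did not overlap, although the lowest 10HDA and highest vehicle libraries were 0.429 and 0.416 CPM. The ratio of summed, scaled counts was 2.52, with an exact 95% counting interval of 1.16 to 5.90, and within cultures 1, 3 and 4 it was 1.59, 4.76 and 2.37. Without culture 1 the log2 ratio was 1.57, and without culture 3 it was 0.96.

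Ucp2 (ENSMUSG00000033685.8, chr7:100493337-100502020, plus strand) encodes a carrier of the inner mitochondrial membrane named for uncoupling. Ucp2 had 3, 4 and 4 counts with vehicle and 4, 6 and 7 with 10HDA, or 0.269, 0.303 and 0.333 CPM against 0.343, 0.432 and 0.768 CPM. Every 10HDA library was above every vehicle library in CPM, although the lowest 10HDA and the highest vehicle library had 4 counts each. Its ratio of 1.62 had an interval of 0.717 to 3.83, so a difference was not detectable at this depth. The log2 ratio was 0.70 with all libraries, 0.83 without culture 1 and 0.45 without culture 4. In the edgeR fit with no filter on low counts, the adjusted p was 0.757 for Ucp2, 0.387 for Angptl4, 0.942 for Ppara and 0.854 for Pparg. An exonic stretch of 305 bases overlaps Dnajb13 on the opposite strand, and whether the counting used strand is not given in the sources used here.

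Acot1 (ENSMUSG00000072949.5, chr12:84009490-84018371, plus strand) and Acot2 (ENSMUSG00000021226.7, chr12:83987861-83993873, plus strand) are neighbours that encode acyl-CoA thioesterases, enzymes that release free fatty acids from coenzyme A, in the cytosol and in mitochondria respectively. Acot1 was at 9.33, 7.42 and 6.74 CPM with vehicle in cultures 1, 3 and 4, and at 11.0, 10.4 and 9.22 CPM with 10HDA. The lowest 10HDA library was just under the highest vehicle library, so the groups overlapped, but the ratio was above 1 in each culture, at 1.18, 1.41 and 1.37.
The means of Acot1 were 7.83 ± 1.34 and 10.2 ± 0.901 CPM (SD, n = 3), with a log2 fold change of 0.41 (SE 0.17, 95% interval 0.026 to 0.78) and an adjusted p of 0.449 from edgeR over 15311 genes, or 0.15 with the block. Without culture 1 it was 0.49 (adjusted p = 0.732). Acot2 was at 16.9, 11.9 and 15.6 CPM with vehicle and 16.3, 17.0 and 18.8 CPM with 10HDA. The groups overlapped, and culture 1 was the one in which the 10HDA library was the lower, with a ratio of 0.961 against 1.43 and 1.21. The means of Acot2 were 14.8 ± 2.62 and 17.4 ± 1.27 CPM, with a log2 fold change of 0.23 (SE 0.16, 95% interval -0.11 to 0.57, adjusted p = 0.622, edgeR). Without culture 1 it was 0.40 (adjusted p = 0.781).

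The transcripts of Acot1 and Acot2 are near copies, and their levels are uncertain for that reason. Of the 50-base windows (the read length) of Acot1, 33.6% also occur in another gene and 23.7% in Acot2, and of those of Acot2 24.5% occur in Acot1. How reads with more than 1 position were counted is not given in the sources used here. With the counts of both genes summed, the log2 fold change was 0.29 (SE 0.14, adjusted p = 0.503 from edgeR, 0.152 with the block).

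The calls among the 9 genes are set here beside those among all genes. At the filter of 10 CPM, met in 3 or more libraries, 2 of the 9 were tested (Ppard and Acot2) and 0 were called, against 0.627% of all 10520 genes. With culture as a block 0 of 2 were called, against 8.98%. In the table of at least 1 CPM, which added Plin2, Pdk4 and Acot1, 0 of 5 were called against 0.509% of 15311 genes, and 1 of 5 with the block against 7.50%. At an unadjusted p under 0.05 there were 0 of 2 members against 10.1% of genes and, in the 1 CPM table, 2 of 5 (Pdk4 and Acot1) against 10.4%. DESeq2, which gave no adjusted p for Pdk4 and Plin2, and limma-voom called 0 of these members. The libraries of the groups did not overlap for 1 of 5 members (Pdk4), against 13.8% of genes in the 1 CPM table. Of the 4 genes under 1 CPM, 2 did not overlap (Angptl4 and Ucp2, both higher with 10HDA), against 12.0% of the 2818 genes outside that table with a mean of at least 0.25 CPM.

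The pathway around the 9 genes was followed in 7 lists of related genes, 111 in all, of which 68 passed the filter of 10 CPM and 83 that of 1 CPM. Of the 68, 34 were above and 34 below 0 in log2 fold change, with a median of 0.0031 against -0.0095 over all genes tested. Passing the threshold without the block were 0 higher and 2 lower genes (Scd1 and Mgll), and with the block 4 higher and 6 lower. Of all 10520 genes tested, 21 were higher and 45 lower without the block (0.627%), and 411 higher and 534 lower with it (8.98%).
Among the 14 tested partner receptors and coregulators, 0 passed with or without the block. For Rxrb, an RXR that pairs with PPARs, the log2 fold change was 0.14 (adjusted p = 0.658) and Ncoa1, a coactivator, -0.21 (adjusted p = 0.602). Rxrg, another RXR, was under the filter of 10 CPM, at 5.64 ± 1.12 CPM with vehicle and 3.92 ± 0.432 CPM with 10HDA (SD, n = 3). Its groups did not overlap, but it did not pass (log2 fold change -0.50, adjusted p = 0.449 by edgeR in the 1 CPM table, 0.146 with the block). The lists of uncoupling proteins and related carriers (4 tested, with Slc25a30 at 0.32 and Slc25a20, the carnitine carrier, at 0.20) likewise had 0 called with or without the block. Ucp1 and Ucp3, the relatives of Ucp2, were at 0.329 and 0.039 CPM on average. Ucp1 had 7 counts with vehicle and 16 with 10HDA, at 0.196 ± 0.129 and 0.462 ± 0.046 CPM (SD, n = 3). Its groups did not overlap, as for Ucp2, and its adjusted p was 0.638 in the edgeR fit with no filter on low counts.

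Of a list of 28 other textbook PPAR targets, which holds genes of fatty acid oxidation and desaturation and others such as Txnip, Cat and Adipoq, 16 were tested, with a median log2 fold change of 0.083. Scd1, the desaturase that makes monounsaturated fatty acids, was at 349, 373 and 363 CPM with vehicle in cultures 1, 3 and 4, and at 229, 239 and 259 CPM with 10HDA. No 10HDA library of Scd1 reached the vehicle range, and its log2 fold change was -0.58 (SE 0.094, adjusted p = 0.0428, edgeR). The call was lost without culture 1 (adjusted p = 0.308) or culture 3 (0.394), and without the single vehicle libraries of cultures 3 and 4 (0.161 and 0.164) or 10HDA libraries of cultures 1 and 3 (0.353 and 0.14). With the block it was 0.000246, and it passed without each culture. Fads2, the delta-6 desaturase, had -0.50 (adjusted p = 0.148, with the block 0.00223, and 0.146 with the block but without culture 4).
Acadl, a dehydrogenase of fatty acid oxidation, was at 21.7, 17.6 and 23.9 CPM with vehicle and 31.6, 28.3 and 39.6 CPM with 10HDA, so that the groups did not overlap. Its log2 fold change was 0.66, with an adjusted p of 0.168 without and 0.000581 with the block. Cpt1a, which admits long-chain fatty acids to mitochondria, was at 18.4, 19.7 and 25.1 CPM with vehicle and 24.8, 31.2 and 33.7 CPM with 10HDA, and its log2 fold change was 0.51 (adjusted p = 0.311, with the block 0.00714). With the block, 2 genes of this list were thus higher (Acadl and Cpt1a) and 2 lower (Scd1 and Fads2).

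In the list of lipid droplet and lipolysis genes, 7 of 17 were tested and 5 were above 0. Mgll, the lipase that cleaves monoacylglycerols, was at 31.3, 29.8 and 30.6 CPM with vehicle and 20.3, 21.8 and 16.7 CPM with 10HDA. The log2 fold change of Mgll was -0.63 (SE 0.13, adjusted p = 0.0894, edgeR, and 0.00134 with the block), and without cultures 1, 3 and 4 in turn the unblocked adjusted p was 0.514, 0.383 and 0.223. Leaving out a single library ended that call (0.14 to 0.449) except for the 10HDA library of culture 4 (0.0809). The unblocked call was also lost with upper quartile scaling (0.145), library size alone (0.218), DESeq2's size factors (0.114) and the 1 CPM filter (0.106). Abhd5, the activator of the main triglyceride lipase, had 0.44 (adjusted p = 0.311, with the block 0.0384, which rose to 0.154 without culture 1 and 0.211 without culture 4). Of the perilipins, relatives of Plin2, Plin3 was at 2.11 ± 0.441 CPM with vehicle and 1.46 ± 0.123 CPM with 10HDA (SD, n = 3), without overlap of the groups but without passing (log2 fold change -0.50, adjusted p = 0.546 in the 1 CPM table, 0.372 with the block). Plin1, Plin4 and Plin5 were at 0.018, 0.626 and 0.443 CPM on average.
Of the 22 genes of uptake, binding and activation, 14 were tested and 0 passed without the block. With it Angptl6, a relative of Angptl4, was higher at a log2 fold change of 0.65 (adjusted p = 0.0067). Fabp7, the fatty acid binding protein of radial glia and astrocytes, was lower at -0.41 (0.0067) and Dbi, the acyl-CoA binding protein, at -0.34 (0.0526). Among acyl-CoA thioesterases other than the pair above, 4 of 12 were tested at 10 CPM. Of these 4, Acot7, a thioesterase abundant in brain, was the 1 that passed with the block, at -0.33 (adjusted p = 0.0409), and Them4 had 0.15 (adjusted p = 0.660 without the block). In the 1 CPM table, Acot11, another thioesterase, was at 6.42 ± 1.27 CPM with vehicle and 4.14 ± 0.166 CPM with 10HDA (SD, n = 3), with no overlap. Its log2 fold change was -0.62 (adjusted p = 0.316), and with the block it was -0.61 and passed (adjusted p = 0.0749), as the 1 related gene added by that table to those called with the block at 10 CPM. Acot8 was higher without overlap, at 8.73 ± 0.369 CPM with vehicle and 9.53 ± 0.322 CPM with 10HDA (SD, n = 3). It did not pass (log2 fold change 0.14, adjusted p = 0.754 by edgeR in the 1 CPM table, 0.677 with the block). In the blocked fit at 10 CPM the call of Acot7 was lost without culture 1 (adjusted p = 0.307) or culture 4 (0.188), as was that of Dbi (0.507 and 0.261), and that of Fabp7 without culture 4 (0.15). For the remaining genes named from these lists, Pdp1 had -0.19 and Pdhb -0.20 without passing in either fit.

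**Figure D3:**
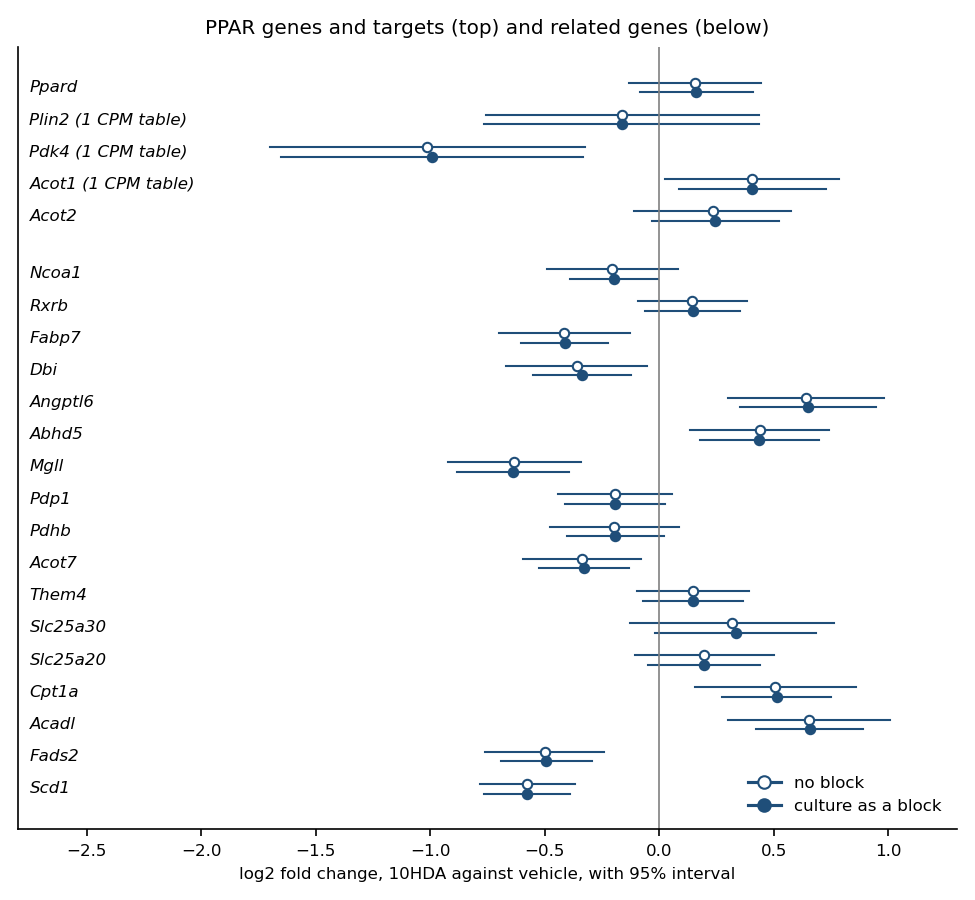
Log2 fold changes, 10HDA against vehicle, with 95% intervals, for the 5 tested members (top) and 17 related genes (below), from edgeR without (open) and with (filled) culture as a block. Pdk4 lies at -1.01 with the widest interval of the related and member genes shown, -1.70 to -0.32, and Acadl (0.66) and Angptl6 (0.64) lie farthest above 0.

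Cell type markers moved with the treatment and are given beside the values above. The 10 neuronal markers summed to 8082 to 8662 CPM with vehicle and 6834 to 7762 CPM with 10HDA, with 9 of 10 lower in the mean and 0 called in the test at 10 CPM. The 8 markers of radial glia summed to 1064 to 1239 against 964 to 1015 CPM, with 6 of 8 lower in the mean and 0 called. The highest of them, Fabp7, was at 448 to 593 against 337 to 426 CPM, and Glul was lower as well. Vim and Sox2 were higher in the mean, with Vim at 143 to 173 against 187 to 202 CPM. The 12 astrocyte markers summed to 1273 to 1564 CPM with vehicle and 952 to 1187 CPM with 10HDA, with 10 of 12 lower in the mean and 5 of 12 called lower in the test at 10 CPM. Of all 10520 genes in that test, 0.627% were called in one direction or the other. The list of endothelial cells and pericytes, 10 markers, summed to 34.1 to 39.3 against 17.1 to 22.8 CPM, with 8 of 10 at a median under 1 CPM, and Cldn5 and Cdh5 listed at a median of 0. For meningeal fibroblasts the 7 markers summed to 91.7 to 150 against 32.8 to 72.3 CPM, 4 of them under 1 CPM. Most of the last sum is Pdgfra, which is also in the list of the oligodendrocyte lineage, whose sums overlapped at 354 to 442 against 272 to 382 CPM. The 6 markers of dividing cells overlapped too, at 171 to 209 against 168 to 225 CPM. In the sums for neurons, radial glia, astrocytes, endothelial cells and pericytes, and meningeal fibroblasts, every 10HDA library was below every vehicle library, as for Pdk4. This held for the sums and not for each marker in them.
The 10 microglial markers summed to 4.83 to 7.19 against 8.21 to 9.09 CPM, and Tmem119 was listed at 0 in every library. As for Angptl4 and Ucp2, every 10HDA library was above every vehicle library. Their part in the results for these genes was not tested. In bulk RNA, fewer cells of a type and less RNA of a gene per cell cannot be told apart.

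**Figure D4:**
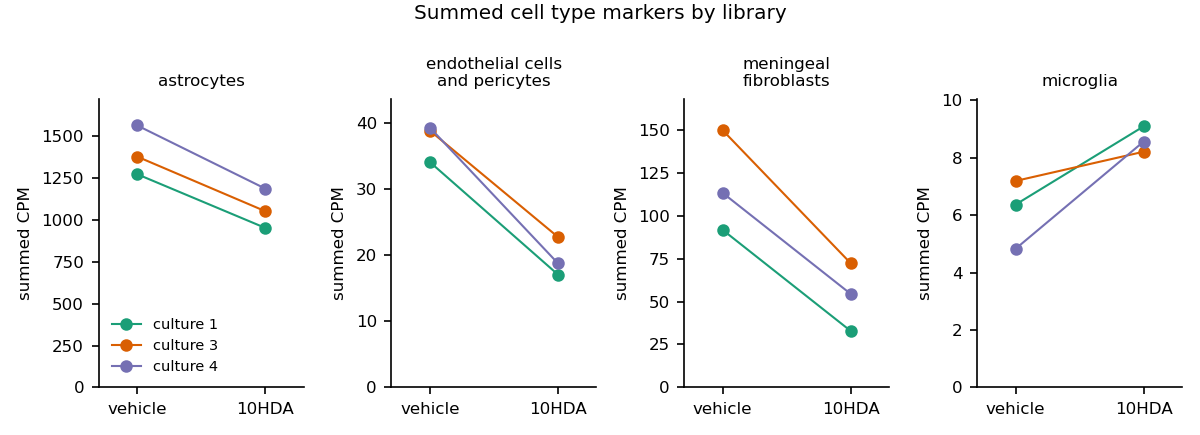
Summed CPM of 4 lists of cell type markers in the vehicle and 10HDA libraries, with the libraries of a culture joined. The astrocyte sum lies at 1273 to 1564 with vehicle and 952 to 1187 with 10HDA, the vascular and the meningeal fibroblast lists are also lower with 10HDA in each culture, and the microglial sum is higher.

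The genes whose log2 CPM followed each of the 2 members over 10 CPM most closely were named by Pearson's r over the 6 libraries, as a description. For Ppard these were Arih2 (0.97), Fubp3 (0.96) and Tbc1d15 (0.96), and for Acot2 they were Gtf3c5 (0.99), Bmp1 (0.99) and Nudt13 (0.98). Among the pairs of the 5 tested members, the lowest value was -0.93 (Acot1 and Pdk4) and the highest 0.56 (Acot1 and Acot2). Pdk4 and Acot2 had -0.69, and Plin2 and Acot1 had -0.58. All of these are over libraries that share their treatment and culture.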

How the data were processed

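Per the labels and the study's methods, the authors made strand-specific libraries of total RNA, aligned untrimmed single-end reads of 50 bases to mm10 with Subjunc (Subread 1.4.4), with featureCounts used for the counts of each gene in the Gencode models. The values the authors deposited are raw counts, neither filtered nor normalized, and the number of columns of other samples was 0. Symbols, strands and coordinates came from GENCODE release M21 (GRCm38), which matched 98.0% of identifiers. Counts were scaled by TMM and tested with edgeR 4.0.16 (glmQLFit and glmQLFTest, two-sided) in R 4.3.3 over genes that reached 10 CPM in 3 or more libraries. P values were adjusted by Benjamini-Hochberg at a threshold of 0.1, as in the study's methods, and no culture term. Members under that filter were tested over genes that reached 1 CPM in 3 or more libraries. A standard error is the absolute log2 fold change over the root of F. Members under 1 CPM have ratios of summed counts with exact binomial intervals, and a test only in the alternative fit with no filter on low counts.

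The labels give each culture 1 library of each treatment, so the culture numbers pair the libraries. As a check, how same-culture libraries departed from their group means correlated across genes at 0.37, 0.24 and 0.62, against -0.45 to 0.18 between cultures. The departures within a group cancel out, so positive values within cultures push those between cultures down. The contrast is therefore partly built in. Each culture is taken as a separate culture, as the labels name it, and an exact permutation test of 3 against 3 cannot give a p below 0.1. Named genes are the 9 members, every related gene past the threshold at 10 CPM with or without the block, the 2 tested genes of smallest p in each related list, and the 3 genes most correlated with each member over 10 CPM. Other genes given with values (Acot8, Acot11, Rxrg, the relatives Ucp1, Ucp3, Plin1, Plin3, Plin4 and Plin5, and marker genes) were chosen after their values were seen. Members and lists were chosen with earlier results of these data known. Alternatives were upper quartile scaling, DESeq2's size factors, library size alone, DESeq2 1.42.0, limma-voom (limma 3.58.1), other filters, a threshold of 0.05, the culture block, and each library and culture left out. The scripts were tested on simulated data. Promoter sequences are from RefSeq (GRCm38.p6).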

Additional observations from a re-analysis of the deposited data

How the results depend on the processing

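Among members at 10 CPM, 0 passed the threshold under every alternative, and no fold change of a tested member changed sign. Pdk4 ranged from -1.29 to -0.79 in log2 fold change (adjusted p 0.0434 to 0.83), Acot1 from 0.29 to 0.55, Acot2 from 0.11 to 0.41, Ppard from 0.11 to 0.26 and Plin2 from -0.34 to -0.043. DESeq2 gave no adjusted p for Pdk4 and Plin2. Of the members below 10 CPM, 1 (Pdk4) passed with culture as a replicate block and 1 with that block and without culture 1, and 0 in each of the other alternatives, those that leave out 1 library or culture without the block among them. The settings that leave out a culture with the block were chosen after seeing the data.

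The count of all genes past the threshold was 66, and it was 170 with DESeq2's test, 945 with the culture block, 636 without a filter, 1148 with the block at 1 CPM and 43 at a threshold of 0.05. With the block and without cultures 1, 3 and 4 in turn it was 711, 1150 and 277. Without the block, leaving out a library or a culture gave 0 (without 10HDA of culture 1, or without culture 3) to 350 (without 10HDA of culture 4). Without vehicle of cultures 1, 3 and 4 the count was 106, 2 and 7, without 10HDA of culture 3 it was 29, and without cultures 1 and 4 it was 3 and 36. With library size alone 21 of 45 genes were higher, against 21 of 66. The cause was not tested.

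Related genes past the threshold numbered 2, and 1 with upper quartile scaling, with library size alone, with DESeq2's size factors, at 1 CPM and at 0.05. They numbered 5 with DESeq2's test, 10 with the block, 8 without a filter and 11 with the block at 1 CPM. With the block and without cultures 1, 3 and 4 they numbered 7, 12 and 5, and without the block and 1 library or culture 0 to 3. Depth limits Ppara, Pparg, Angptl4 and Ucp2, with 22 to 53 counts in all.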
